A study of Mus musculus with 2 samples.

Results

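Canonical Wnt feedback and TCF/LEF genes were followed in mouse embryonic fibroblasts (MEFs) that lacked or carried *Bcl11b*. They were 10 genes, *Axin2*, *Nkd1*, *Nkd2*, *Notum*, *Apcdd1*, *Ccnd1*, *Myc*, *Cd44*, *Lef1* and *Tcf7l2*, taken by gene name. Every probe set that the platform annotation gave to exactly 1 of them was read, which was 31 of the 45101 probe sets on the array. The 2 groups were BCL11B-/- MEFs and BCL11B+/+ MEFs, both primary cells of C57BL/6 embryos at embryonic day 12.5, used at passage 2. Both were harvested 12 h after the change to adipocyte differentiation medium, so the controls had the full cocktail too. This medium held pioglitazone at 10 μM, insulin at 10 μg/ml, dexamethasone at 1 μM and methylisobutylxanthine at 0.5 mM. Its base was DMEM with ascorbic acid and 10% fetal bovine serum. Each genotype was measured once, on 1 Affymetrix array of the mouse genome. The number of embryos behind each culture is not given in the sources used here. Expression is given as the authors' normalized value on the log2 scale, and a difference is BCL11B-/- minus BCL11B+/+. With 1 array per genotype there is no replicate error and no p-value, and differences are described by size, with 1.5-fold (0.58 on the log2 scale) as the rule.

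In the canonical pathway a Wnt ligand stops the degradation of β-catenin, which enters the nucleus and acts with the DNA-binding TCF/LEF proteins. Among the genes that this switches on are brakes on the pathway itself, which is why *Axin2* and its like are used as readouts of it. Wnt/β-catenin activity is known to hold back the step from preadipocyte to adipocyte. The comparison asks whether these readouts differed between the genotypes early in adipogenesis.

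TCF and LEF proteins share an HMG box that recognises the core CTTTG, preferably within CTTTGAT or CTTTGTT. In the table of RefSeq start sites used here (GRCm38.p6), 6 of the 10 genes were read, *Axin2*, *Nkd1*, *Nkd2*, *Cd44*, *Lef1* and *Tcf7l2*. *Notum*, *Ccnd1* and *Myc* had no entry there, and *Apcdd1* was left out by a filter on the chromosome. The 250 bases before the start are shown for the most widely used feedback gene, for the genes with the highest differences, *Nkd2* and *Cd44*, and for *Tcf7l2*, a factor that binds this core. Bases are in lower case and each match to CTTTG, on either strand, is in capitals.
*Axin2*, chr11:108920099-108920348, plus strand: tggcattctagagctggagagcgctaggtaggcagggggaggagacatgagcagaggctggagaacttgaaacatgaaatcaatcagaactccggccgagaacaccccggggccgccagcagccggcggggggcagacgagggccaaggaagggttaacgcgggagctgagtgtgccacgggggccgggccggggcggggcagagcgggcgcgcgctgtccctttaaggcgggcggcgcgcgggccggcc
*Nkd2*, chr13:73847632-73847881, minus strand: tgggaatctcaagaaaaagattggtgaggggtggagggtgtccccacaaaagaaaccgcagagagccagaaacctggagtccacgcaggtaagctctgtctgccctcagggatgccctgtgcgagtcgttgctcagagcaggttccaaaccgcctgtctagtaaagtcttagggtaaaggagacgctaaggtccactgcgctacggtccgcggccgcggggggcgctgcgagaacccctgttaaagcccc
*Cd44*, chr2:102901666-102901915, minus strand: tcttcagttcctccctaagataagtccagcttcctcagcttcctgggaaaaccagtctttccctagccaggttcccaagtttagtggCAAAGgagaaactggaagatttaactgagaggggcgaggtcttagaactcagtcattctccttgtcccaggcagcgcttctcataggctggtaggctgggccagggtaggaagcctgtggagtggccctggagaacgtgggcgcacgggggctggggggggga
*Tcf7l2*, chr19:55741560-55741809, plus strand, the first of its 2 starts: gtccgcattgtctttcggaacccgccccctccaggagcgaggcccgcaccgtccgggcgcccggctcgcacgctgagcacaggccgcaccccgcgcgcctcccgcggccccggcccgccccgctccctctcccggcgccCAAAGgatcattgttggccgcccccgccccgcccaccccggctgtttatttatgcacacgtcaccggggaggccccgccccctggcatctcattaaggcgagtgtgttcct
The core stood at position −163 before the start of *Cd44* and at position −111 before that of *Tcf7l2*, both times as its reverse complement CAAAG. It was in none of the windows of *Axin2*, *Nkd1* and *Nkd2* and in all 4 windows of *Lef1*, of which the first pair overlap. In all, 7 of 10 windows held it, 4 of them those of *Lef1*, and by gene 3 of 6. Of all 32851 windows of the same length in that table, 48.6% held it. Of the longer forms, which contain the core, CTTTGTT was found once, before the second start of *Tcf7l2* (5.03% of all windows), and CTTTGAT was not found (3.21% of all windows). A match is a description of the letters and not a binding site.

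The targeted gene was read first. The brightest probe set of *Bcl11b* read 7.40 in BCL11B-/- MEFs and 8.77 in BCL11B+/+ MEFs, and all 4 of them were 2.26- to 2.97-fold lower in BCL11B-/- MEFs. The deleted exons are not named in the sources used here, so a probe set outside the deleted part would not check the genotype. The arrays had medians of 5.28 for both genotypes and no difference in the median over all measured genes. The cultures differed in sex-linked transcripts, where *Xist* read 4.80 in BCL11B-/- MEFs, against 10.80 in BCL11B+/+ MEFs. The Y-linked *Eif2s3y* read 8.97 in BCL11B-/- MEFs, against 7.89 in BCL11B+/+ MEFs. *Kdm5d* and *Uty*, also Y-linked, read 7.81 and 7.61 in BCL11B-/- MEFs, against 6.84 and 6.80 in BCL11B+/+ MEFs. BCL11B+/+ MEFs thus gave both *Xist* and Y-linked signal. Fibroblast markers were present, and 8 of 8 were measured, 1 of them at least 1.5-fold higher and 1 lower. Of 10 measured macrophage markers, 8 were at least 1.5-fold lower and none higher, with a summed linear level of 2329 in BCL11B-/- MEFs and 4085 in BCL11B+/+ MEFs. Of 6 measured chondrocyte markers, 5 were higher and none lower, with sums of 3874 in BCL11B-/- MEFs and 2041 in BCL11B+/+ MEFs. Of 5 measured adipocyte markers, 2 were lower, *Lpl* by −0.97 and *Pparg* by −0.71, and none was higher. Short of 1.5-fold, *Cebpa* lay below 0 (−0.53), and *Adipoq* (0.56) and *Fabp4* (0.31) lay above it. *Lpl*, the brightest of them, weighed most in their sums of 5608 in BCL11B-/- MEFs and 9521 in BCL11B+/+ MEFs. No marker of these lists was at 0. The part of cell composition and of embryo sex in the differences below was not tested.

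Each gene was read from the probe set that was brightest on average over both arrays and counted as measured where that mean was at least 5 log2 units, which held for 9 of the 10 genes and for 12331 genes on the array. None of the 9 was 1.5-fold higher and none 1.5-fold lower in BCL11B-/- MEFs, where 1.61% of all measured genes were higher and 1.75% lower. The 9 differences ran from −0.33 for *Apcdd1* to 0.26 for *Cd44*, with a median of −0.13, and the median of all measured genes was 0. At 1.2-fold (0.26 on the log2 scale), *Apcdd1*, *Tcf7l2* and *Ccnd1* were lower and no member was higher, beside 7.8% of all measured genes lower and 8.81% higher. *Cd44* and *Nkd2*, with 0.262 and 0.258, lay just short of this rule (0.263), and *Cd44* passed it, with 0.264, once a loess fit was subtracted. As a technical yardstick, the differences of several probe sets for the same gene scattered with a pooled SD of 0.145 (log2, 5543 genes). By level, this SD was 0.182 for means of 5 to 7, 0.114 for means of 7 to 9 and 0.081 above, and members were read against the SD of their own level. On that reading 4 members, *Ccnd1*, *Apcdd1* and *Tcf7l2* below 0 and *Cd44* above 0, lay more than 2 SDs from 0, as did 18.0% of all measured genes. Against the pooled SD of 0.145, 3 members did, without *Cd44*, and 14.0% of all measured genes. The SDs by level compare only probe sets of a gene that fall in the same level. In size, the members' median difference was 0.26 and that of all measured genes 0.11. Bulk RNA does not tell fewer cells that express a gene from less RNA per cell.

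**Figure D1:**
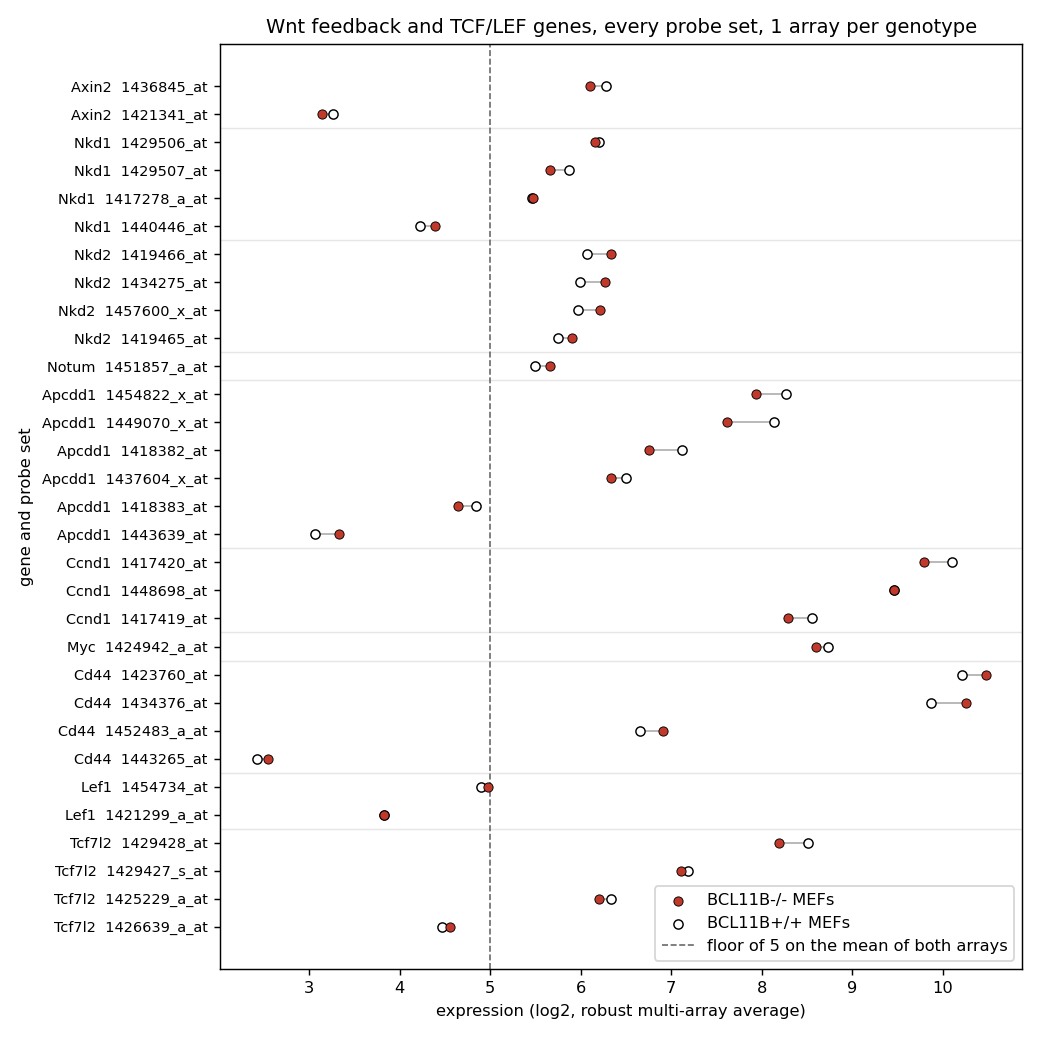
Normalized log2 expression (horizontal axis) on each of the 31 probe sets (vertical axis, by gene and falling mean) in BCL11B-/- MEFs (filled circles) and BCL11B+/+ MEFs (open circles); each circle is a single array, so there are no error bars. Filled circles lie right of the open ones on all 4 probe sets of *Nkd2* and of *Cd44*, and left of them on the 4 probe sets of *Apcdd1* with a mean of at least 5.

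The feedback genes that act inside the cell differed in sign, each by less than 2 SDs at its level. *Axin2*, which encodes a scaffold of the complex that marks β-catenin for degradation, read 6.10 in BCL11B-/- MEFs and 6.28 in BCL11B+/+ MEFs on probe set 1436845_at, a difference of −0.18. Its other probe set was dim, at 3.14 in BCL11B-/- MEFs and 3.26 in BCL11B+/+ MEFs. Both probe sets were thus slightly lower in BCL11B-/- MEFs, the brighter by no more than the SD at its level (0.182). Naked cuticle proteins bind Dishevelled, the relay between receptor and destruction complex, and restrain the signal. *Nkd2* read 6.33 in BCL11B-/- MEFs and 6.08 in BCL11B+/+ MEFs on probe set 1419466_at. This difference of 0.26 was 1.4 SDs at its level (0.182). On its other 3 probe sets it read 6.27, 6.22 and 5.91 in BCL11B-/- MEFs, against 6.00, 5.97 and 5.75 in BCL11B+/+ MEFs. All 4 were higher in BCL11B-/- MEFs, with a mean difference of 0.23 ± 0.054 (SD over 4 probe sets, which are not replicates). *Nkd1*, the other gene of the pair, read 6.16 in BCL11B-/- MEFs and 6.21 in BCL11B+/+ MEFs on probe set 1429506_at. Its remaining probe sets read 5.66, 5.47 and 4.40 in BCL11B-/- MEFs, against 5.87, 5.46 and 4.23 in BCL11B+/+ MEFs. Here 2 probe sets were lower and 2 higher, with a mean of −0.020 ± 0.15 (SD over 4 probe sets), so *Nkd1* had no settled direction.

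Feedback at the cell surface was read from *Notum* and *Apcdd1*. *Notum*, a secreted enzyme gene whose product removes the lipid that Wnt ligands need, read 5.66 in BCL11B-/- MEFs and 5.50 in BCL11B+/+ MEFs on its only probe set. That mean lay close to the floor of 5, and the difference of 0.16 was within the SD at its level (0.182). *Apcdd1* encodes a membrane protein that binds Wnt and its co-receptor and blocks them. It read 7.94 in BCL11B-/- MEFs and 8.27 in BCL11B+/+ MEFs on probe set 1454822_x_at, which is 1.26-fold lower. The 3 other probe sets with a mean of at least 5 read 7.62, 6.76 and 6.34 in BCL11B-/- MEFs, against 8.13, 7.12 and 6.50 in BCL11B+/+ MEFs. All 4 were lower in BCL11B-/- MEFs, with a mean difference of −0.34 ± 0.14 (SD over 4 probe sets), and 1449070_x_at, with −0.52, was the largest difference among the 31 probe sets, at 1.43-fold. Among the 2 dim probe sets, 1 differed by −0.20 and the dimmest, at 3.33 in BCL11B-/- MEFs and 3.06 in BCL11B+/+ MEFs, was higher. Of the 4 probe sets with a mean of at least 5, only 1418382_at lacked the _x suffix, which marks probes that also match other sequences. That probe set differed by −0.36. Of all measured genes, 628 (5.09%) lay as far below 0 as *Apcdd1*.

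The growth and adhesion targets also differed in direction from each other. *Ccnd1*, the cyclin that drives entry into S phase with its kinase partners, read 9.80 in BCL11B-/- MEFs and 10.11 in BCL11B+/+ MEFs on probe set 1417420_at, which is 1.24-fold lower. Probe set 1417419_at read 8.29 in BCL11B-/- MEFs and 8.56 in BCL11B+/+ MEFs, and probe set 1448698_at read 9.47 in BCL11B-/- MEFs and 9.46 in BCL11B+/+ MEFs. So 2 of 3 probe sets were lower and the third, which is also bright, differed by 0.0021. Among bright probe sets (mean of at least 9) the pooled SD was only 0.081, and the 3 probe sets of *Ccnd1* had an SD of 0.17 around a mean of −0.19. *Myc*, a transcription factor of growth and ribosome production, read 8.60 in BCL11B-/- MEFs and 8.73 in BCL11B+/+ MEFs on its only probe set. This difference of −0.13 was slightly more than 1 SD at its level (0.114). *Cd44*, the hyaluronan receptor on fibroblasts and leukocytes, read 10.48 in BCL11B-/- MEFs and 10.22 in BCL11B+/+ MEFs on probe set 1423760_at, a difference of 0.26. Its other probe sets read 10.26, 6.91 and 2.54 in BCL11B-/- MEFs, against 9.87, 6.66 and 2.42 in BCL11B+/+ MEFs. All 4 were higher in BCL11B-/- MEFs, and the 3 with a mean of at least 5 averaged 0.30 ± 0.074 (SD over 3 probe sets). Markers of macrophages, which also carry CD44, were lower in the same culture, as given above. The part of cell composition in the *Cd44* difference was not tested. Of all measured genes, 1094 (8.87%) lay as far above 0 as *Cd44*.

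The DNA-binding factors were read from *Lef1* and *Tcf7l2*. *Lef1*, a target of the pathway as well as a factor, was the gene not counted as measured. Its probe sets read 4.98 and 3.83 in BCL11B-/- MEFs, against 4.90 and 3.83 in BCL11B+/+ MEFs. Both means were under 5, where values hold mostly background, so no difference could be read for *Lef1*. *Tcf7l2*, which encodes TCF4, the factor on many Wnt targets, read 8.19 in BCL11B-/- MEFs and 8.51 in BCL11B+/+ MEFs on probe set 1429428_at, which is 1.25-fold lower. Its other probe sets read 7.11, 6.20 and 4.55 in BCL11B-/- MEFs, against 7.19, 6.33 and 4.47 in BCL11B+/+ MEFs. The 3 probe sets with a mean of at least 5 were all lower, but 2 of them by −0.073 and −0.13, within the SDs at their levels, so the size of the difference rested on 1 probe set and was −0.11 as the mean over all 4.

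**Figure D2:**
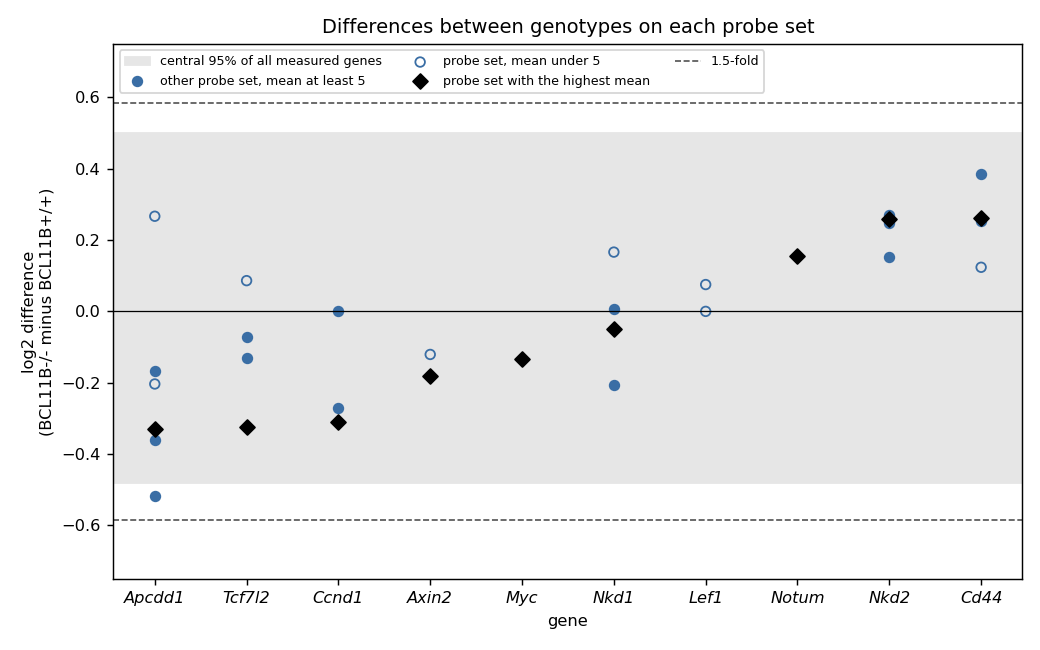
Log2 difference (vertical axis, BCL11B-/- minus BCL11B+/+) on each probe set of the 10 genes (horizontal axis, ordered by the probe set with the highest mean). Diamonds are probe sets with the highest mean where it was at least 5, filled circles are other probe sets with a mean of at least 5, open circles are dimmer ones, and the grey band from −0.48 to 0.50 holds the central 95% of all measured genes. Only 1 probe set of *Apcdd1*, at −0.52, lies outside the band, and none reaches the dashed lines of 1.5-fold.

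Of the 31 probe sets, 23 had a mean of at least 5, of which 10 were higher and 13 lower in BCL11B-/- MEFs, with a median difference of −0.073. None of the 31 reached 1.5-fold, beside 1.4% of all probe sets with a mean of at least 5 that were higher and 1.65% that were lower. Among genes with at least 3 such probe sets, the direction was the same on all of them for 4 of 6 members, *Nkd2*, *Apcdd1*, *Cd44* and *Tcf7l2*, and for 39.5% of 2302 genes on the array. The weighted average difference, the score by which the study's methods ranked genes, multiplies a log2 difference by the relative level, so that bright genes rank first. No member was among the 50 highest or the 50 lowest of 18193 genes. This covers the members only and not every target of the pathway. Among its own top-ranked genes the study reported others downstream of Wnt/β-catenin, such as *Wisp2* and *Osteopontin*, higher in BCL11B-/- MEFs. Ranks used the probe set of a gene that scored highest in size, which for *Cd44*, *Apcdd1*, *Nkd1* and *Nkd2* was not the brightest. *Cd44* came closest, at rank 285 from the highest, followed by *Apcdd1* at rank 308 and *Ccnd1* at rank 475 from the lowest.

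**Figure D3:**
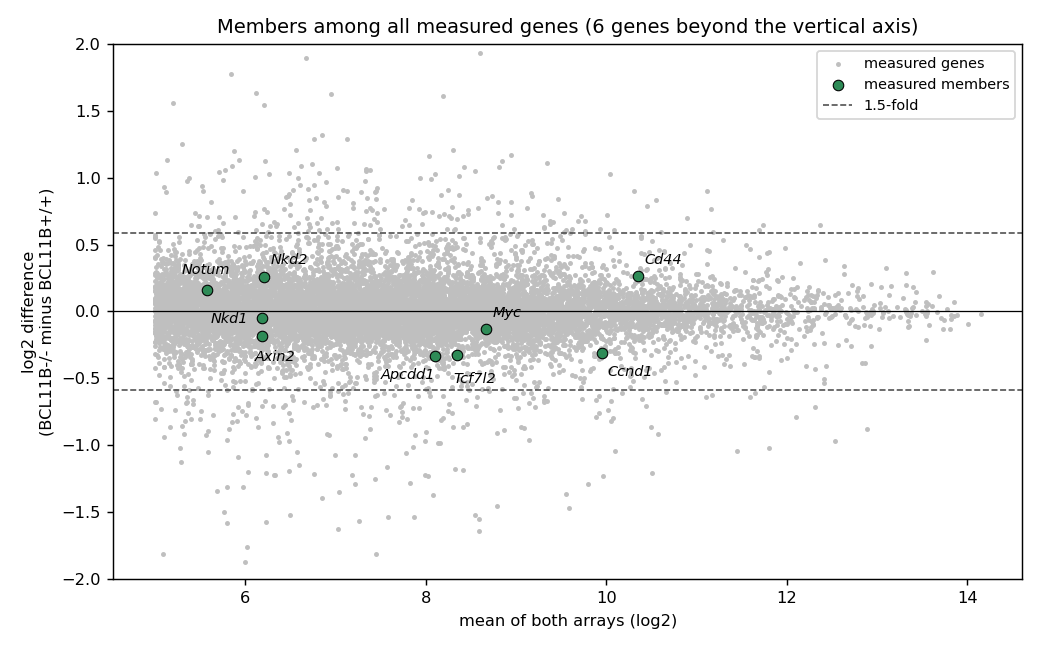
Log2 difference (vertical axis, BCL11B-/- minus BCL11B+/+) against the mean of both arrays (horizontal axis, log2) for 12331 measured genes (grey) and the 9 measured members (green). All 9 lie between the dashed lines of 1.5-fold, with *Apcdd1*, *Tcf7l2* and *Ccnd1* lowest. The 6 genes beyond the vertical axis are not members.

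The rest of the pathway was read from lists of 139 genes, of which 117 were measured. Of these 1 was at least 1.5-fold higher and 3 were lower, with a median of −0.029. In the destruction complex none of 11 genes reached 1.5-fold, from *Csnk1e*, a casein kinase gene, at −0.19 to *Btrc*, which encodes the ubiquitin ligase subunit for β-catenin, at 0.13. *Axin1*, the constant counterpart of *Axin2*, read 7.18 in BCL11B-/- MEFs and 7.24 in BCL11B+/+ MEFs. Among 11 co-activators none reached 1.5-fold, from *Bcl9l* at −0.089 to *Pygo2* at 0.17, and β-catenin itself (*Ctnnb1*) read 12.87 in BCL11B-/- MEFs and 12.83 in BCL11B+/+ MEFs. On the brightest probe sets the differences of this core machinery thus lay close to 0, but other probe sets of a gene lay farther away, down to −0.52 for *Tbl1xr1* and −0.46 for *Cdc73* and up to 0.40 for *Fbxw11*. *Bcl9l* turned to 0.064 as the mean over its 3 probe sets. Among 13 TCF/LEF relatives and co-repressors the highest was the co-repressor *Tle4* with 0.20, which was −0.066 as the mean over its 3 probe sets. The lowest was *Tcf7l1*, which encodes TCF3, mainly a repressor of Wnt targets. It read 9.07 in BCL11B-/- MEFs and 9.64 in BCL11B+/+ MEFs, 1.49-fold lower, and its second probe set differed by −0.32. Thus *Tcf7l1*, like *Tcf7l2*, was lower in BCL11B-/- MEFs, and just short of 1.5-fold.

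In the relay from receptor to Dishevelled none of 10 genes reached 1.5-fold, from the co-receptor *Lrp5* at −0.37 to *Dixdc1*, a Dishevelled-binding protein gene, at 0.43. The other co-receptor, *Lrp6*, differed by −0.27. Of 6 ubiquitin ligase and secreted feedback genes 1 was lower, *Sostdc1*, a secreted antagonist of Wnt and BMP, at 5.32 in BCL11B-/- MEFs and 6.64 in BCL11B+/+ MEFs, and its second probe set differed by −0.56. *Tnks*, which destabilises axin, was the highest at 0.15. *Znrf3*, a ligase that removes Frizzled receptors and is itself induced by the pathway, differed by −0.28 on its brightest probe set and by −0.11 as the mean over both. *Dkk1*, *Rnf43* and *Sp5*, further feedback genes and targets, were under the floor of 5, as was *Lef1*. Of 17 other common targets 1 was higher and 2 were lower, with a median of 0.037. *Sox9*, which is also a chondrocyte marker, read 8.06 in BCL11B-/- MEFs and 7.42 in BCL11B+/+ MEFs, where it stood beside the other chondrocyte markers. The lower ones were *Lgr5*, an R-spondin receptor gene, by −2.49, and *Bambi*, a TGF-β pseudoreceptor gene, by −0.72. *Lgr5* differed by only −0.35 on its second probe set.

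Partners of the growth and adhesion targets were read in the same way. Among 12 D cyclins, kinases and RB family genes none reached 1.5-fold, from *Ccnd3* at −0.14 to *Rbl1*, an RB relative, at 0.15, and *Cdk4*, the kinase partner of cyclin D1, differed by −0.070. *Ccnd3* turned to 0.070 as the mean over its 3 probe sets. *Ccnd2*, the cyclin most like *Ccnd1*, read 11.96 in BCL11B-/- MEFs and 11.84 in BCL11B+/+ MEFs. In the MYC network of 10 genes none reached 1.5-fold, and the median was −0.13, beside 0 for all measured genes. The MYC antagonists *Mxd1* and *Mxd3* were its lowest and highest genes, with −0.33 and 0.26, but *Mxd1* was at −0.027 as the mean over its 3 probe sets. Of 14 genes known to be induced by MYC none reached 1.5-fold, from the nucleotide kinase *Nme1* at −0.27 to the transferrin receptor *Tfrc* at 0.37, with a median of −0.060. Hyaluronan genes and CD44 partners had a median of 0.16 over 9 genes, none of them at 1.5-fold. *Hmmr*, a hyaluronan-binding protein that also serves the mitotic spindle, was the highest at 0.47. *Has2*, the main hyaluronan synthase of fibroblasts, read 7.81 in BCL11B-/- MEFs and 7.44 in BCL11B+/+ MEFs, and its 2 probe sets both differed by at least 0.37. The lowest was *Vcan*, a hyaluronan-binding proteoglycan gene, at −0.26 on its brightest probe set. Its 8 probe sets ran from −0.79 to 0.23, with a mean of −0.24. Enzymes of Wnt lipid modification and glypicans, the partners of *Notum*, ran from *Gpc3* at −0.087 to *Gpc4* at 0.29 over 6 genes.

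**Figure D4:**
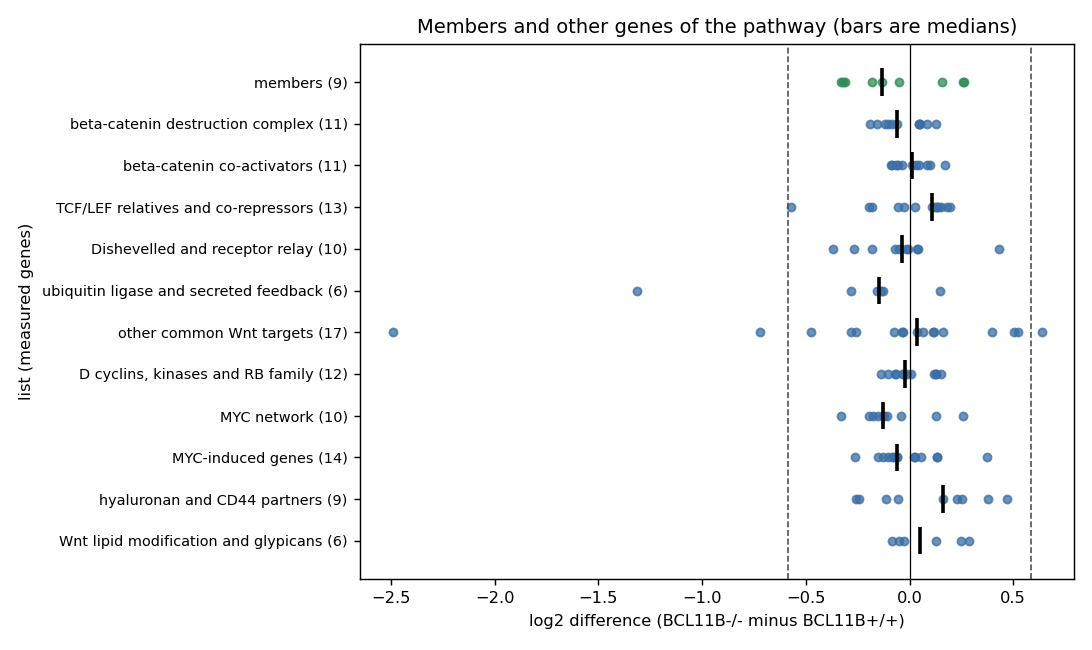
Log2 difference (horizontal axis, BCL11B-/- minus BCL11B+/+) of the 9 measured members (green) and of the genes of 11 further lists (blue). The vertical axis names each list and its count of measured genes, with medians as black bars and 1.5-fold as dashed lines. Of the 117 blue genes, 113 lie between the dashed lines, while *Lgr5* at −2.49, *Sostdc1* at −1.31 and *Bambi* at −0.72 lie to the left and *Sox9* at 0.64 to the right.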

How the data were processed

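Total RNA (100 ng) of 1 BCL11B-/- and 1 BCL11B+/+ MEF culture was hybridized by the authors to 1 array each. The deposited values are log2 expression, which the authors made by robust multi-array average (background correction, normalization between arrays, summary of probes), with R 3.0.3 per the submitters' processing notes. Because the arrays were brought to a common distribution, a shift of all mRNA could not show, and background pulls differences of dim probe sets toward 0. No genome build is named for the array values in the sources used here.

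Of 45101 probe sets, 64 were controls, 34945 others had 1 annotated gene and were named, while 932 with more than 1 gene and 9160 without any were not. Genes were read from their brightest probe set, and those averaging under 5 were not counted. Promoters were read from RefSeq (GRCm38.p6). Members and lists were chosen with earlier results of these data known. Named were all members, the highest and lowest gene and every gene past 1.5-fold of each list; *Axin1*, *Ctnnb1*, *Lrp6*, *Znrf3*, *Dkk1*, *Rnf43*, *Sp5*, *Cdk4*, *Ccnd2*, *Has2* and the genes named for their other probe sets were added after their values were seen. Alternatives were other choices of probe set, loess (span 0.4), median centring, and other filters and size rules. The counting was tested on simulated data. With 1 array per genotype no test was run, and the number of arrays limits the precision. Python 3.11.15, numpy 2.4.6, pandas 2.3.3, statsmodels 0.14.6 and matplotlib 3.10.9 were used.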

Additional observations from a re-analysis of the deposited data

How the results depend on the processing

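The 10 genes had 38 alternative values of their difference, of which 37 moved by less than the yardstick of 0.145 log2 units and none changed sign. The exception was *Tcf7l2*, −0.11 as the mean over all probe sets. Many of the 38 could not move, because median centring subtracted 0 and most genes kept the same probe set without suffixes. At 1.2-fold 3 members were lower and 0 higher, and with the loess fit subtracted as well, chosen after seeing the data, 3 were lower and 1, *Cd44*, was higher. With a mean of at least 7 the members' median moved from −0.13 to −0.31. This filter kept *Apcdd1* (−0.33), *Tcf7l2* (−0.32), *Ccnd1* (−0.31) and *Myc* (−0.13), all lower, and *Cd44* (0.26), which was higher. It left out *Axin2* and *Nkd1*, which lay below 0, and *Nkd2* and *Notum*, which lay above it. Of the other pathway genes 0 were higher with the mean over all probe sets or at 2-fold, and 9 were higher and 11 lower at 1.2-fold. Over all genes, the filter at 7 left 112 higher and 124 lower, the 1.2-fold rule gave 1086 higher and 962 lower, and the 2-fold rule 43 higher and 62 lower; stricter rules count fewer genes by construction. The loess fit ran from −0.011 to 0.014 and the median difference was 0, so neither moved a count of members at 1.5-fold. *Myc* and *Notum* have only probe sets with a suffix and gave no value without them. No paired analysis was possible because each genotype has 1 array, which also leaves no replicate to leave out. Values under 5 log2 units limit *Lef1* and the dim probe sets of *Axin2*, *Nkd1*, *Apcdd1*, *Cd44* and *Tcf7l2*.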
